A study of Mus musculus with 2 samples.

Results

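The 8 genes described here belong to the interleukin 6 and oncostatin M axis and are 8 of the 32285 gene rows of the count tables. They were taken by name, with earlier results of these data known: the ligands Il6, Osm, Lif and Il11, the shared receptor chain Il6st, the ligand-specific receptor chains Il6ra and Osmr, and the feedback inhibitor Socs3. All 8 had a row in both tables, and each was followed by its unique molecular identifiers (UMIs, tags that count captured transcripts) in every cell class of each library.

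The cytokines of this family share the receptor chain gp130, the product of Il6st. Interleukin 6 first binds Il6ra, mouse oncostatin M acts mainly through Osmr, interleukin 11 through Il11ra1 and leukaemia inhibitory factor through Lifr, and each complex then takes up gp130. The receptor activates JAK kinases and the transcription factor STAT3. STAT3 induces Socs3, whose protein binds gp130 and damps the signal. In tumours, myeloid cells are known as sources of interleukin 6 and oncostatin M, and fibroblasts and epithelial cells as responders to oncostatin M.

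The cells came from CT26 tumours, a transplantable mouse colon carcinoma line, grown in BALB/c mice, an inbred laboratory strain. The PTIR1 group was made of tumours that expressed PTIR1, named in the title as suppressing the immunoproteasome, and the mock group of tumours with a mock genotype. Droplet-based 3' single-cell RNA sequencing gave 1 PTIR1 library and 1 mock library. The labels give no age, time after implantation, or number of animals behind a library. With 1 library per group no difference could be tested, and every interval is a 95% interval for counting error only. Differences between the libraries and differences between the genotypes cannot be told apart.

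The PTIR1 library held 9006 barcodes and 98540561 UMIs, with a median of 4933 UMIs per barcode, and the mock library 10833 barcodes and 95166611 UMIs, with a median of 2357. After filtering, 7500 PTIR1 cells (median 6935 UMIs) and 8632 mock cells (median 3224 UMIs) were kept, of which 18 in each library carried a barcode found in both. No row was named PTIR1, so the labels could not be checked by that gene. The cells are labelled as tumour-infiltrating lymphocytes, but myeloid cells, fibroblasts and tumour cells were present as well. Cells were clustered without the 8 genes and classes were named "-like" from marker genes. Monocyte or macrophage-like cells were 20.5% of PTIR1 and 27.7% of mock cells, fibroblast-like cells 10.8% and 0.544%, and CT26 tumour cell-like cells 2.17% and 3.44%. Clusters without a class held 25.7% of PTIR1 and 43.2% of mock cells, and clusters with markers of several lineages 9.72% and 3.12%. Of the clusters without a class, a myeloid cluster led by Cxcl3 and Thbs1 (4.20% of PTIR1 and 2.32% of mock cells) is described by its leading genes, as is a smaller one led by Cd209a and Mgl2. Among the tumour cell markers, Krt7, Epcam and Cldn4 had 0 UMIs in the CT26 tumour cell-like class of both libraries, and its fibroblast markers summed to 738 CPM in PTIR1 (CPM is a gene's UMIs scaled to the UMI total of the class and library) and 614 CPM in mock, so this class rests on the 3 tumour markers that passed the naming rule.

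In mm10, Il6 (ENSMUSG00000025746) lies at chr5:30013114-30019981 on the plus strand. Osm (ENSMUSG00000058755, chr11:4236420-4241026) and Lif (ENSMUSG00000034394, chr11:4257557-4272514) lie on the plus strand of the same stretch of chromosome 11. Il11 (ENSMUSG00000004371) is at chr7:4772373-4782859 on the minus strand, Il6st (ENSMUSG00000021756) at chr13:112464070-112510086 on the plus strand, and Il6ra (ENSMUSG00000027947) at chr3:89864059-89913196 on the minus strand. Osmr (ENSMUSG00000022146, chr15:6813577-6874969) and Socs3 (ENSMUSG00000053113, chr11:117966079-117970047) are on the minus strand. Each gene was counted as a whole, without telling exons or transcripts apart.

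The promoters of the feedback gene Socs3 and of the ligands Il6 and Il11 are shown because each holds a motif of a factor downstream of cytokine or stress signals. Whether these promoters or motifs bear on the levels below was not tested. They are the 250 bases before the annotated start (RefSeq, GRCm38.p6), written 5′ to 3′ on the gene's strand, with motif matches in capitals: chr11:117969367-117969616 on the minus strand for Socs3, chr5:30012864-30013113 on the plus strand for Il6 and chr7:4778142-4778391 on the minus strand for the second of 2 Il11 starts.
Socs3: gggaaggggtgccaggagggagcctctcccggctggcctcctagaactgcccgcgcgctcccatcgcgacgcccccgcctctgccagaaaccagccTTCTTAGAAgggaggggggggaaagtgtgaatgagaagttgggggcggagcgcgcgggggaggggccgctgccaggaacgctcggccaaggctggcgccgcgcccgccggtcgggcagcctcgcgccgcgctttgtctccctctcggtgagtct
Il6: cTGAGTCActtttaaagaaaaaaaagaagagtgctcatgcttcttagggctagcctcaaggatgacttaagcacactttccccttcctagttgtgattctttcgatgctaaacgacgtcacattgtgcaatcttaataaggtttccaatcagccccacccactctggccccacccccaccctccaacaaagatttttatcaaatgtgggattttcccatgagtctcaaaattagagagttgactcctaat
Il11: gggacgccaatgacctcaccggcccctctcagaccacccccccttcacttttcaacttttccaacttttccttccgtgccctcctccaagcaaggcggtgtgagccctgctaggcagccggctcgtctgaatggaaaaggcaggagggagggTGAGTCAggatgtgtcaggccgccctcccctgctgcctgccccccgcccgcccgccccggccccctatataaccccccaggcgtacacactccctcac
The STAT motif TTCNNNGAA was found in the Socs3 promoter, 154 to 146 bases before the RefSeq start, and in no other of the 8 promoters listed for 7 of the genes. The RefSeq starts are not those of the gene spans given above, which come from GENCODE. The Socs3 window shown lies inside its GENCODE span, downstream of the 5′ end of that span, as does the Il11 window. Of all 32851 promoters of the table, 2306 (7.02%) held it. The AP-1 motif TGANTCA stood 249 to 243 bases before the Il6 start, 228 to 222 bases before the Lif start and 98 to 92 bases before this Il11 start, against 2217 promoters (6.75%) in all. Both strands were searched, and no motif overlapped another. A match describes the letters and not binding.

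Over all kept cells, 5 of the 8 genes were at least 1.5-fold higher in the PTIR1 library and 1 was at least 1.5-fold lower, where 14.2% of all measured genes were higher and 6.38% lower by that fold (20.5% in either direction). Osm stood at 305 CPM in PTIR1 and 151 CPM in mock, a ratio of 2.02. Il6 stood at 17.2 and 8.22 CPM, a ratio of 2.09 (1.91 to 2.29), and Lif at 4.74 and 2.72 CPM, a ratio of 1.74. The ligand Il11 went the other way, at 7.14 CPM in PTIR1 and 13.4 CPM in mock, a ratio of 0.533. Of the receptor chains, Osmr had 197 UMIs in PTIR1 and 7 UMIs in mock, a ratio of 25.5 (12.1 to 64.2), while Il6st stood at 38.0 and 28.2 CPM and Il6ra at 40.7 and 38.9 CPM. Socs3 stood at 247 CPM in PTIR1 and 159 CPM in mock, a ratio of 1.55. These sums mix the level per class with the number of cells of each class, which differed between the libraries, so the classes are given separately below. The plot of levels by class shows both parts.

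**Figure D1:**
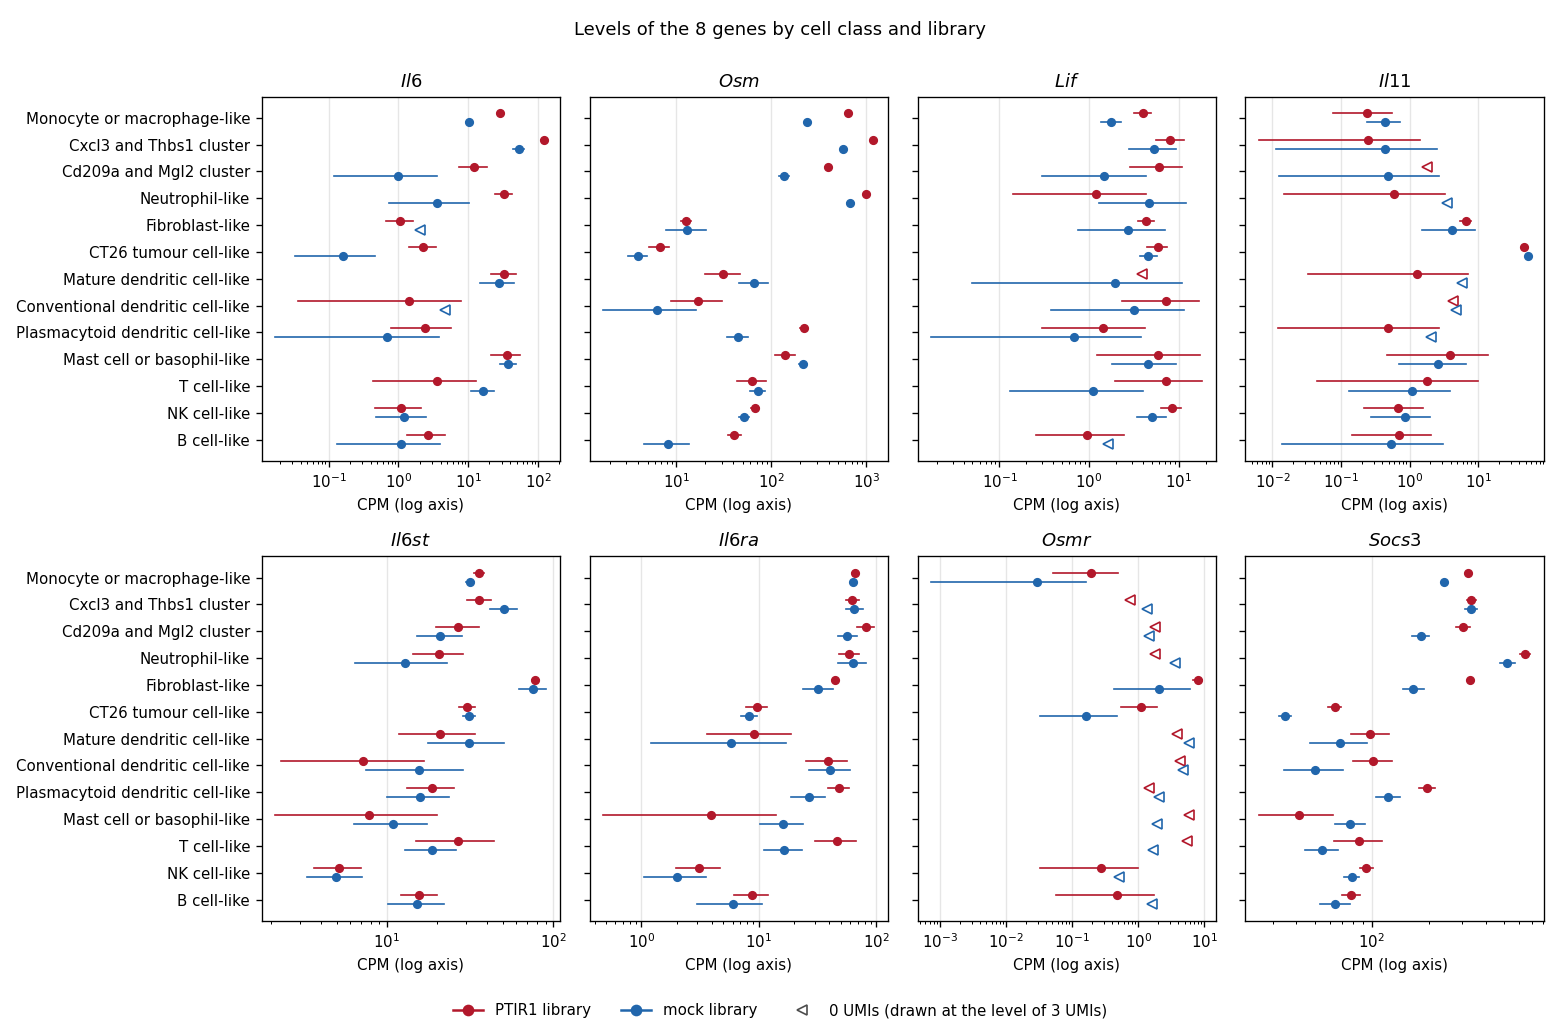
Levels of the 8 genes in CPM (log axis) in 11 cell classes and the 2 clusters named by their leading genes. Points are the CPM of summed UMIs in the PTIR1 library (red, above) and the mock library (blue, below), lines are 95% Poisson intervals for counting error, and open triangles mark 0 UMIs, drawn at the level that 3 UMIs would give. Osm was highest in the Cxcl3 and Thbs1 cluster (1179 CPM in PTIR1 and 571 CPM in mock) and in neutrophil-like cells, Il11 in CT26 tumour cell-like cells (47.6 and 54.3 CPM), and Osmr in fibroblast-like cells (7.97 and 2.06 CPM).

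Il6 and Osm came mostly from myeloid cells, and Il11 from tumour cells. The monocyte or macrophage-like class held 38.4% of the Il6 UMIs in PTIR1 (36.0% to 40.8%) and 51.8% in mock (48.0% to 55.6%), and 47.7% of the Osm UMIs in PTIR1 and 65.5% in mock. The Cxcl3 and Thbs1 cluster held 30.01% of the Il6 UMIs in PTIR1 and 17.3% in mock, from 4.20% and 2.32% of the cells. Clusters with markers of several lineages held 17.0% of the Il6 UMIs in PTIR1 and 6.55% in mock, and 18.0% and 5.83% of the Osm UMIs. How the class shares of the 2 libraries stood to each other depended on the doublet rule with the clustering that followed it, and on the treatment of unnamed clusters. With the same doublet rule in both libraries the Il6 share was 78.2% in PTIR1 and 69.4% in mock. That rule kept the same mock cells as before, but all cells were clustered and named again. With the Cxcl3 and Thbs1 cluster counted in the class the Il6 share was 68.4% and 69.1%, and at a clustering resolution of 0.5 it was 13.4% and 30.3%.

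Lif had no dominant source. In PTIR1, fibroblast-like cells held 20.6% of its UMIs, monocyte or macrophage-like cells 19.5%, NK cell-like cells 14.2% and CT26 tumour cell-like cells 13.5%. In mock, CT26 tumour cell-like cells held 37.9%, monocyte or macrophage-like cells 26.9%, NK cell-like cells 13.2% and fibroblast-like cells 1.76%. Il11, a cytokine of stromal and epithelial cells, was held by CT26 tumour cell-like cells for 73.4% in PTIR1 (69.9% to 76.8%) and 90.9% in mock (89.1% to 92.5%). Fibroblast-like cells held 20.6% of the Il11 UMIs in PTIR1 and 0.536% in mock. When classes were taken from a gate on markers in each cell instead of from clusters, the tumour class held only 4.86% of the Il11 UMIs in PTIR1 and 12.4% in mock.

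**Figure D2:**
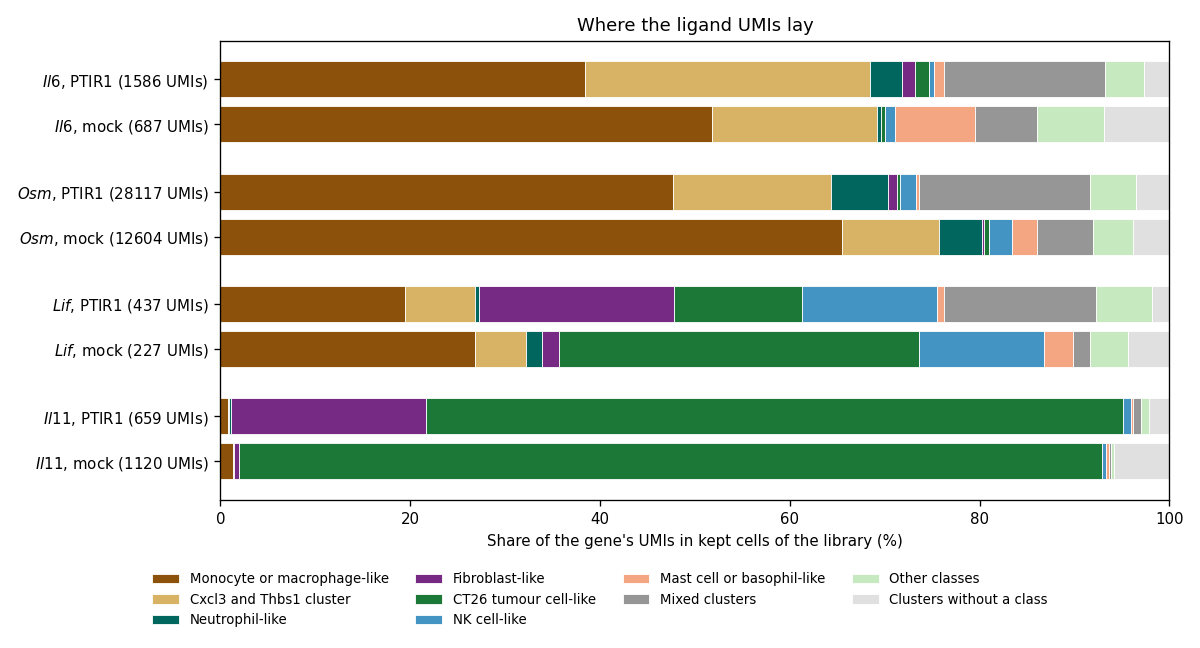
Share of the UMIs of each ligand (horizontal axis, %) that lay in each cell class or set of clusters, with the PTIR1 library above the mock library for each gene and the total UMIs of the gene in parentheses. Monocyte or macrophage-like cells and the Cxcl3 and Thbs1 cluster together take the largest part of Il6 and Osm, and CT26 tumour cell-like cells take 73.4% (PTIR1) and 90.9% (mock) of Il11.

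In monocyte or macrophage-like cells the ligands Osm, Il6 and Lif were higher in the PTIR1 library, Il11 was lower on few UMIs, and Il6st and Il6ra were near the same level. Of the 7 genes with at least 20 UMIs in this class, 3 were at least 1.5-fold higher and 1 at least 1.5-fold lower in PTIR1, where 10.9% of the 12651 measured genes passed the fold (6.31% higher, 4.55% lower). Osm had 13412 UMIs (633 CPM) in 1534 PTIR1 cells and 8258 UMIs (239 CPM) in 2394 mock cells, a ratio of 2.65 (2.58 to 2.73). It was seen in 76.1% of the PTIR1 cells and 63.5% of the mock cells, at median depths of 12612.5 and 13225 UMIs per cell. With every cell thinned to 1000 UMIs, Osm was seen in 35.9% of PTIR1 and 19.4% of mock cells. B cell-like cells, which are not known as a source of Osm, gave 3.86% and 0.988% at the same depth.

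Il6 had 609 UMIs (28.7 CPM, 26.5 to 31.1) in the PTIR1 monocyte or macrophage-like cells and 356 UMIs (10.3 CPM, 9.24 to 11.4) in the mock ones, a ratio of 2.79 (2.45 to 3.19). It was sparse in both libraries: 13.4% of PTIR1 and 6.93% of mock cells held a UMI, and 2.62% and 1.01% after thinning to 1000 UMIs, against 0.129% and 0.494% of B cell-like cells. The 10 cells with the most Il6 held 29.2% of its UMIs in PTIR1 and 32.3% in mock, and with the top cell of each library left out the ratio was 2.97. Lif had 85 UMIs (4.01 CPM) in PTIR1 and 61 UMIs (1.76 CPM) in mock, a ratio of 2.28 (1.62 to 3.22). Il11 had only 5 UMIs in PTIR1 and 15 UMIs in mock, a ratio of 0.544 whose interval of 0.155 to 1.58 includes 1, and the direction turned when each cell or each cluster was given the same weight (log2 ratios of 1.19 and 0.62). Markers of other cell types moved too in this class. The 10 neutrophil markers summed to 910 CPM in PTIR1 and 600 CPM in mock, with 8 of 10 higher in PTIR1, the 10 fibroblast markers to 55.4 and 17.2 CPM, with Lum at 0 in mock, and the 4 erythroid markers to 577 and 2.48 CPM. The 10 macrophage markers summed to 6202 CPM in PTIR1 and 6383 CPM in mock. The part of these other cell types in the Osm and Il6 values was not tested.

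The difference in Osm was present cluster by cluster. In all 12 myeloid clusters compared (10 of the monocyte or macrophage-like class, and the 2 named by their leading genes), Osm was higher in PTIR1 with an interval above 1. The ratios ran from 1.54 in the cluster led by Pf4 and Ppbp to 3.14 in the cluster led by C1qa and C1qc, with a median of 2.42. Osm was also 2.91-fold higher in the unnamed cluster led by Gpnmb and Fabp5 (36 PTIR1 and 82 mock cells). Il6 was higher in PTIR1 in 11 of the 12 clusters, in 8 of them with an interval above 1. Its highest ratios were 12.3 (2.98 to 108) in the Cd209a and Mgl2 cluster, from 20 UMIs in PTIR1 and 2 UMIs in mock, and 11.7 (5.20 to 32.8) in the cluster led by Ednrb and Cbr2, from 96 and 6 UMIs. In the Cd209a and Mgl2 cluster the 20 UMIs lay in 6 of 93 PTIR1 cells, 8 of them in 1 cell, and the 2 mock UMIs were in 1 cell. In the Pf4 and Ppbp cluster Il6 stood at 23.6 CPM in PTIR1 and 22.9 CPM in mock, and in the Cxcl9 and Calhm6 cluster it had 1 UMI in PTIR1 and 9 UMIs in mock. In the Cd209a and Mgl2 cluster Il6, Osm and Socs3 (ratio 1.67) were 3 of 5 measured genes past the fold, all higher in PTIR1, where 8.15% of all measured genes were higher and 10.1% lower (18.3% in either direction).

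**Figure D3:**
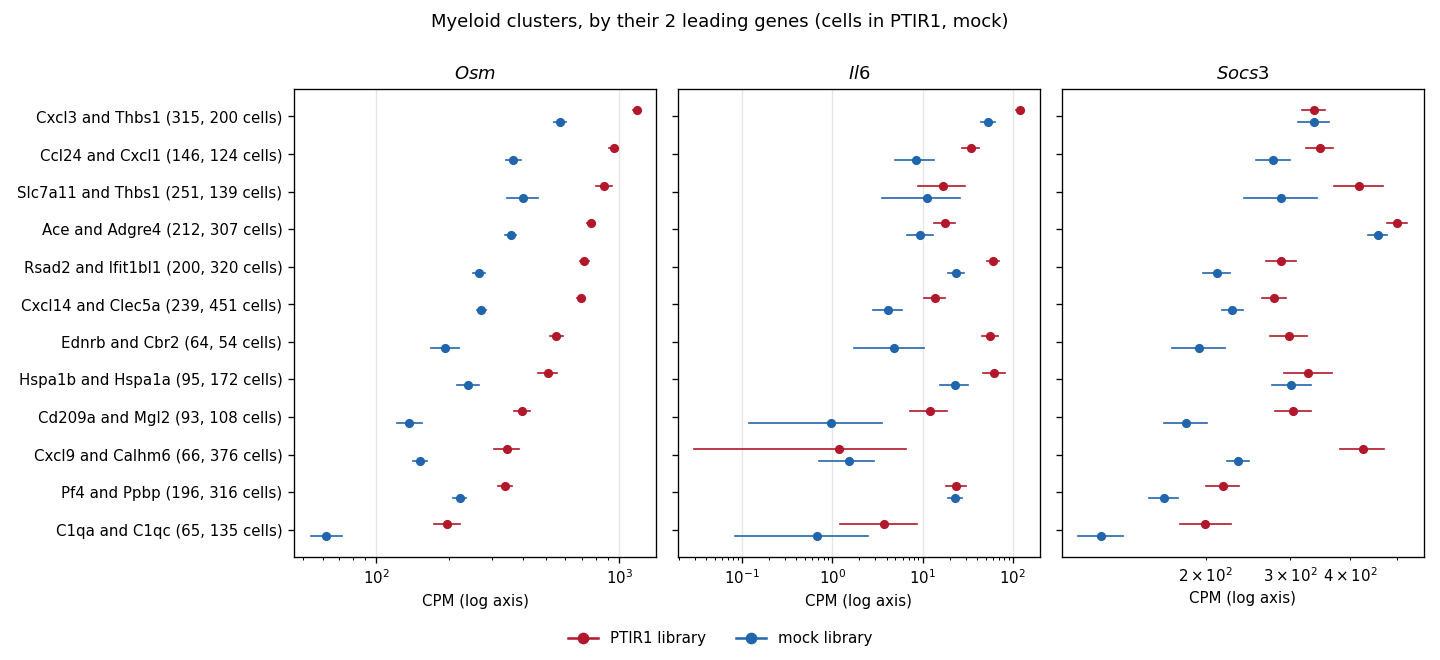
Osm, Il6 and Socs3 in CPM (log axis) in the 12 myeloid clusters, ordered by the Osm level in PTIR1 and named by their 2 leading genes, with the PTIR1 library in red above the mock library in blue and 95% Poisson intervals as lines. In each cluster the red Osm point lies right of the blue one, from 195 CPM in PTIR1 and 62.3 CPM in mock (C1qa and C1qc) to 1179 and 571 CPM (Cxcl3 and Thbs1), while the Socs3 points of the Cxcl3 and Thbs1 cluster coincide (335 and 336 CPM).

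The Cxcl3 and Thbs1 cluster (315 PTIR1 and 200 mock cells) had the highest Il6 level of all classes in both libraries, although in mock its interval overlapped that of the next, the mast cell or basophil-like class. Of the 6 genes measured in this cluster, 3 were at least 1.5-fold higher in PTIR1 and none at least 1.5-fold lower, against 6.33% higher and 7.36% lower among all measured genes (13.7% in either direction). They were Il6, Osm and Lif. Lif was just past the fold, from 32 UMIs in PTIR1 and 12 UMIs in mock, a ratio of 1.507 (0.755 to 3.21) whose interval includes 1. Il6 had 476 UMIs (119.7 CPM) in PTIR1 and 119 UMIs (53.0 CPM) in mock, a ratio of 2.26 (1.85 to 2.79), and was seen in 44.4% of PTIR1 and 21.0% of mock cells. Osm had 4689 UMIs (1179 CPM) in PTIR1 and 1282 UMIs (571 CPM) in mock, and was seen in 91.7% and 86.5% of the cells. Most cells of this cluster thus held Osm, while Il6 was in a part of them. With cells thinned to 3000 UMIs, Il6 was seen in 23.9% of the PTIR1 cells with Osm (57 of 238) and 10.4% of those without it (5 of 48). In mock it was seen in 9.09% of the cells with Osm (11 of 121) and 12.9% of those without (8 of 62). The cells with Il6 but no Osm were thus few, and the difference between the libraries was not tested. The neutrophil markers of this cluster summed to 2295 CPM in PTIR1 and 1381 CPM in mock and the erythroid ones to 1045 and 2.67 CPM, and their part in the ligand values was not tested.

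In neutrophil-like cells, which share with the Cxcl3 and Thbs1 cluster the highest Osm levels, 2 of 5 measured genes were at least 1.5-fold higher in PTIR1 and none lower, where 13.6% of all measured genes were higher and 11.1% lower by the fold (24.7% in either direction). Osm had 1687 UMIs (996 CPM) in 308 PTIR1 cells and 577 UMIs (677 CPM) in 189 mock cells, a ratio of 1.47 (1.34 to 1.62), just under the fold. Il6 had 54 UMIs (31.9 CPM) in PTIR1 and 3 UMIs (3.52 CPM) in mock, a ratio of 9.05 (2.94 to 45.3). These 54 UMIs lay in 18 cells. Il6st was the other gene past the fold, with 35 UMIs in PTIR1 and 11 UMIs in mock, a ratio of 1.60 (0.794 to 3.49) whose interval includes 1. The 10 neutrophil markers themselves summed to 36120 CPM in PTIR1 and 47291 CPM in mock.

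Mast cell or basophil-like cells were the class in which several of the genes were lower in PTIR1. Of 5 measured genes 3 were at least 1.5-fold lower and none higher, where 28.7% of all measured genes passed the fold in this class (7.02% higher, 21.7% lower). Il6 was at nearly the same level, at 35.2 CPM in 87 PTIR1 cells and 37.1 CPM in 248 mock cells, but 12 of the 18 PTIR1 UMIs were in 1 cell. Without the top cell of each library Il6 stood at 11.9 CPM in PTIR1 and 30.2 CPM in mock, a ratio of 0.393 (0.137 to 0.921). Osm stood at 141 CPM in PTIR1 and 216 CPM in mock, a ratio of 0.653 (0.499 to 0.844), and Socs3 at 41.1 and 76.8 CPM, a ratio of 0.535 (0.319 to 0.855). Mast cells are known makers of interleukin 6, and they held 1.13% of the Il6 UMIs in PTIR1 and 8.44% in mock.

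In the other lymphoid and dendritic classes the ligands were low or rested on few cells. Of 4 measured genes in plasmacytoid dendritic cell-like cells, 3 were at least 1.5-fold higher in PTIR1 and none lower, where 10.4% of all measured genes were higher and 7.01% lower (17.4% in either direction). They were Il6ra (ratio 1.81), Socs3 (1.61) and Osm. Osm was 4.91-fold higher (3.78 to 6.47) in PTIR1 plasmacytoid dendritic cell-like cells, at 218 CPM in PTIR1 and 44.4 CPM in mock. Their neutrophil markers summed to 1007 CPM in PTIR1 and 225 CPM in mock, and the part of neutrophil RNA in this value was not tested. In B cell-like cells Osm stood at 40.9 CPM in PTIR1 and 8.17 CPM in mock, a ratio of 4.998 (2.95 to 9.13), with macrophage markers at 993 and 786 CPM. B cells are not known to make Osm, and the part of RNA from other cells in this level was not tested. Osm was the 1 gene of 4 past the fold in B cell-like cells, where 9.82% of all measured genes were higher and 8.13% lower (18% in either direction). In T cell-like cells, 2 of 5 measured genes were higher and 1 lower, against 11.3% higher and 13.3% lower among all (24.6% in either direction). Their Il6 had 2 UMIs in PTIR1 and 30 UMIs in mock, and all 30 were in 1 cell. NK cell-like cells, which had among the highest Lif levels, stood at 8.36 CPM of Lif in PTIR1 and 5.09 CPM in mock, a ratio of 1.64 (1.05 to 2.63). Lif and Il6ra, with a ratio of 1.52 (0.727 to 3.36), were the 2 of 5 measured genes past the fold in NK cell-like cells, both higher, where 4.02% of all measured genes were higher and 4.97% lower (8.99% in either direction). Mature dendritic cell-like cells had 1 of 4 measured genes past the fold, Osm, as lower in PTIR1, against 11.6% higher and 12.9% lower among all (24.5% in either direction), and conventional dendritic cell-like cells 1 of 2, Socs3 (2.02), as higher, against 11% higher and 11.3% lower (22.3%).

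CT26 tumour cell-like cells were the main holders of Il11 and carried little Il6 and Osm. They held 13.5% of the Lif UMIs in PTIR1 and 37.9% in mock. Il11 had 484 UMIs (47.6 CPM) in 163 PTIR1 cells and 1018 UMIs (54.3 CPM) in 297 mock cells, a ratio of 0.876 (0.784 to 0.977). It was unevenly spread: 130 of the PTIR1 and 317 of the mock UMIs were in 1 cell each, and without those cells the levels were 34.9 and 37.6 CPM, a ratio of 0.929 (0.815 to 1.06). It was seen in 51.5% of PTIR1 and 44.8% of mock cells. Of the 7 genes measured in this class, 3 were at least 1.5-fold higher in PTIR1 and none at least 1.5-fold lower, where 5.96% of all measured genes were higher and 6.78% lower by the fold (12.7% in either direction). They were Socs3, described below, Osm and Il6. Osm had 68 UMIs (6.68 CPM) in PTIR1 and 74 UMIs (3.95 CPM) in mock, a ratio of 1.69 (1.20 to 2.39), and was lower in PTIR1 when each cell weighed the same (log2 ratio of -0.57). Il6 had 23 UMIs in PTIR1 and 3 UMIs in mock, of which 12 of the PTIR1 UMIs were in 1 cell. Both stood no higher than in B cell-like cells, which had 40.9 CPM of Osm in PTIR1 and 8.17 CPM in mock and 2.61 and 1.09 CPM of Il6, so no expression of these 2 ligands by tumour cells is read from the counts. Lif had 59 UMIs (5.80 CPM) in PTIR1 and 86 UMIs (4.59 CPM) in mock, in 23.3% and 17.2% of the cells.

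The shared receptor chain Il6st was highest in fibroblast-like cells and was within the fold in most of the larger classes. In fibroblast-like cells it had 1614 UMIs (77.9 CPM) in 809 PTIR1 cells and 110 UMIs (75.6 CPM) in 47 mock cells, a ratio of 1.03 (0.850 to 1.26), and was seen in 81.1% and 80.9% of the cells. In monocyte or macrophage-like cells it stood at 35.8 CPM in PTIR1 and 31.6 CPM in mock, a ratio of 1.13 (1.03 to 1.24), and in CT26 tumour cell-like cells at 30.5 and 31.2 CPM, a ratio of 0.978. The level was lowest in NK cell-like cells, at 5.12 CPM in PTIR1 and 4.92 CPM in mock. In PTIR1 the levels below fibroblast-like cells, from 36.0 CPM in the Cxcl3 and Thbs1 cluster down to those NK cell-like cells, formed a run in which no class was apart from the next beyond counting error. In the Cxcl3 and Thbs1 cluster Il6st was at 36.0 CPM in PTIR1 and 50.7 CPM in mock, a ratio of 0.709 (0.550 to 0.915), and over the 12 myeloid clusters it was higher in PTIR1 in 7, with ratios from 0.640 to 2.30.

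Il6ra, the chain that binds interleukin 6, had its highest levels in myeloid cells. It stood at 65.9 CPM in PTIR1 and 63.9 CPM in mock in monocyte or macrophage-like cells (ratio 1.03, 0.963 to 1.10), at 62.6 and 65.4 CPM in the Cxcl3 and Thbs1 cluster and at 59.1 and 63.4 CPM in neutrophil-like cells. These levels lie close together in both libraries. The Cd209a and Mgl2 cluster, with the highest point value in PTIR1, stood at 81.9 CPM there and 57.1 CPM in mock, a ratio of 1.43 (1.11 to 1.85). The myeloid class as a whole had 1396 UMIs of Il6ra in PTIR1 and 2212 UMIs in mock, seen in 48.5% and 50.4% of the cells. Within the class the cluster led by Ace and Adgre4 was highest, at 116 CPM in PTIR1 and 136 CPM in mock, and the cluster led by Hspa1b and Hspa1a lowest, at 30.03 and 40.8 CPM. Fibroblast-like cells had 44.7 CPM in PTIR1 and 32.3 CPM in mock, a ratio of 1.38 (1.03 to 1.90). They held 925 of the 3751 Il6ra UMIs of all kept cells in PTIR1 and 47 of 3250 in mock. CT26 tumour cell-like cells had less, at 9.63 CPM in PTIR1 and 8.27 CPM in mock. Outside these classes, Il6ra was 2.83-fold higher in PTIR1 T cell-like cells (1.61 to 4.96), from 26 UMIs in 115 PTIR1 cells and 30 UMIs in 256 mock cells. The class joins 2 clusters in unequal parts: the cluster led by Slc17a6 and Cd8a gave 19 PTIR1 and 109 mock cells and had 0 and 1 Il6ra UMIs, and within the cluster led by Cd5 and Tnfrsf4 (96 and 147 cells) the ratio was 1.59 (0.9003 to 2.80), an interval that includes 1.

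Osmr, which gives cells their response to oncostatin M, was found mostly in fibroblast-like cells in the PTIR1 library, and had too few UMIs in mock to place it. Fibroblast-like cells held 165 of its 197 UMIs in PTIR1 (83.8%) and 3 of its 7 UMIs in mock. Within the class Osmr stood at 7.97 CPM in PTIR1, seen in 13.5% of the cells, and at 2.06 CPM in mock, seen in 4.26% (2 cells), a ratio of 3.87 (1.30 to 18.9). CT26 tumour cell-like cells had 11 Osmr UMIs in PTIR1 and 3 in mock, and the monocyte or macrophage-like class 4 and 1. In the Cxcl3 and Thbs1 cluster, one of the 2 sets of cells highest in Osm, Osmr had 0 UMIs in both libraries, which allows up to 0.754 CPM in PTIR1 and 1.34 CPM in mock (3 UMIs). The 25.5-fold ratio of Osmr over all cells stands beside 809 fibroblast-like cells in PTIR1 and 47 in mock, so the number of these cells and the level per cell both enter it.

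In fibroblast-like cells Il6, Osm and Il11 were low beside their main sources, while Lif, at 4.34 CPM in PTIR1 and 2.75 CPM in mock, lay near its level in other classes. Il6 had 22 UMIs (1.06 CPM) in PTIR1 and 0 UMIs in mock, where 0 allows up to 2.06 CPM (3 UMIs), so no fold is given. Lif had 90 UMIs in PTIR1 and 4 UMIs in mock, a ratio of 1.58 (0.597 to 5.93), and Il11 136 and 6 UMIs, a ratio of 1.59 (0.713 to 4.42). Both intervals include 1, and with classes taken from a marker gate both genes were lower in PTIR1 (log2 ratios of -0.081 for Lif and -0.90 for Il11). Osm was at 12.7 CPM in PTIR1 and 13.1 CPM in mock, but 16 of the 19 mock UMIs were in 1 cell, and without the top cell of each library it was at 11.4 and 2.12 CPM. With Osmr and Socs3, 4 of the 8 genes were at least 1.5-fold higher in PTIR1 fibroblast-like cells and none lower, where 22.4% of all measured genes passed the fold (12.1% higher, 10.3% lower). The 10 macrophage markers summed to 109 CPM in PTIR1 and 124 CPM in mock in this class, and the 10 fibroblast markers to 3459 and 2601 CPM, with Mfap5 at 0 in mock. The 8 CT26 tumour cell markers summed to 803 CPM in PTIR1 and 767 CPM in mock, beside 996 and 1096 CPM in the tumour cell-like class. The 4 erythroid markers summed to 84.8 and 1.37 CPM. The part of RNA from other cells in the Lif and Il11 values of fibroblast-like cells was not tested. A further 237 PTIR1 cells and 0 mock cells formed a cluster with markers of several lineages. Macrophage markers summed to 3599 CPM there, NK cell markers to 1954, monocyte markers to 1898, neutrophil markers to 1436 and fibroblast markers to 1143 CPM. The part of each cell type in the ligand values of this cluster was not tested. It held 80 UMIs of Il6 (43.4 CPM), 641 of Osm (348 CPM) and 8 of Osmr, and was kept apart from the fibroblast-like class.

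**Figure D4:**
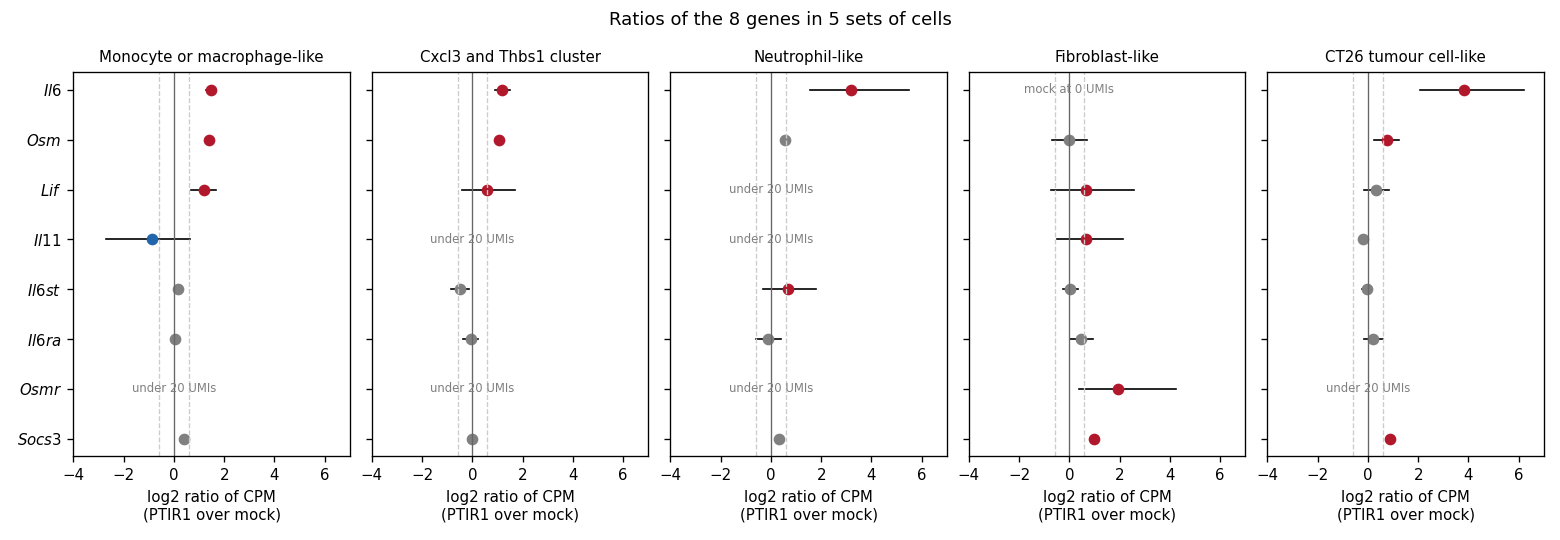
Log2 ratios of CPM, PTIR1 over mock, of the 8 genes in 5 sets of cells, with 95% intervals for counting error. Red points are at least 1.5-fold higher in PTIR1, blue points at least 1.5-fold lower and grey points neither, dashed lines mark the fold, and genes under 20 UMIs or at 0 in mock have no point. Il6, Osm and Lif lie right of 0 in monocyte or macrophage-like cells (ratios of 2.79, 2.65 and 2.28), while Il6ra lies at 0 (1.03).

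Socs3, the feedback gene of the axis, was higher in PTIR1 in most classes, fibroblast-like and tumour cell-like cells among them. In fibroblast-like cells it had 6870 UMIs (332 CPM) in PTIR1 and 242 UMIs (166 CPM) in mock, a ratio of 1.995 (1.75 to 2.28), and was seen in 93.4% and 85.1% of the cells. In CT26 tumour cell-like cells it had 649 UMIs (63.8 CPM) in PTIR1 and 655 UMIs (34.9 CPM) in mock, a ratio of 1.83 (1.63 to 2.04). In these tumour cells Socs3 was lower than in B cell-like cells of both libraries (78.1 CPM in PTIR1 and 64.3 CPM in mock), and the part of RNA from other cells in it was not tested. The difference was smaller in myeloid cells. Monocyte or macrophage-like cells had 6844 UMIs (323 CPM) in PTIR1 and 8355 UMIs (241 CPM) in mock, a ratio of 1.34 (1.30 to 1.38), and neutrophil-like cells, the highest class, 648 and 521 CPM, a ratio of 1.24. In the Cxcl3 and Thbs1 cluster, where Il6 and Osm were highest in PTIR1, Socs3 did not part the libraries, at 335 CPM in PTIR1 and 336 CPM in mock. Over the 12 myeloid clusters it was higher in PTIR1 in 11, in 10 of them with an interval above 1, with ratios up to 1.82 in the Cxcl9 and Calhm6 cluster. Its RefSeq promoter window, shown above, is the member window with the STAT motif and lies inside the GENCODE gene span.

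The other genes of the family and its signalling did not move together. Of 24 listed genes, 21 were measured in monocyte or macrophage-like cells, of which 2 were at least 1.5-fold higher and 3 at least 1.5-fold lower in PTIR1, beside 6.31% and 4.55% of all measured genes. Their median log2 ratio was 0.08, beside -0.02 over all measured genes. The higher ones were the receptor Il31ra (1.37 CPM in PTIR1 and 0.549 CPM in mock) and the ligand Clcf1 (3.82 and 2.34 CPM). Those lower included Il27, a subunit of interleukin 27, at 4.34 CPM in PTIR1 and 10.4 CPM in mock (2.40-fold lower, 1.90 to 3.05), and the feedback inhibitor Socs1, at 33.4 and 56.6 CPM (1.69-fold lower). Stat3 itself stood at 113 CPM in both libraries. Il11ra1, the receptor of interleukin 11, stood at 28.0 CPM in PTIR1 and 16.5 CPM in mock fibroblast-like cells, a ratio of 1.70 (1.13 to 2.67). Lifr had 229 UMIs in PTIR1 and 269 UMIs in mock in the monocyte or macrophage-like class (ratio 1.39) and only 5 and 0 UMIs in fibroblast-like cells. In neutrophil-like cells 2 of 13 measured genes of this list were higher and 4 lower, beside 13.6% and 11.1% of all measured genes. In CT26 tumour cell-like cells 1 of 16 was higher, Il27ra with 20 UMIs in PTIR1 and 11 in mock, and 2 were lower, beside 5.96% and 6.78% of all.

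Of 17 genes known to respond to STAT3, 6 of 17 measured were at least 1.5-fold higher and none lower in PTIR1 monocyte or macrophage-like cells, where 6.31% of all measured genes were higher. The list had a median of 0.28 on the log2 scale in this class. Saa3, an acute phase protein, was at 24.6 CPM in PTIR1 and 1.96 CPM in mock (ratio 12.5). Lrg1, a secreted glycoprotein, was at 14.3 and 2.92 CPM (4.88) and Lcn2, an iron-carrier binding protein that neutrophil granules also hold, at 9.11 and 2.83 CPM (3.22). The kinase Pim3 was at 82.0 CPM in PTIR1 and 41.6 CPM in mock (1.97). In fibroblast-like cells 7 of 16 measured genes were higher and 1 lower, with a median log2 ratio of 0.38 against -0.01 over all genes, and 12.1% of all measured genes were higher by this fold. Lcn2 was higher there too, at 60.1 CPM in PTIR1 and 19.2 CPM in mock (3.13), with Junb (2.01), Ier3 (1.90) and Cebpb (1.56), while Saa3 went the other way, at 10.4 CPM in PTIR1 and 30.9 CPM in mock (2.98-fold lower). In CT26 tumour cell-like cells 1 of 15 measured genes passed the fold, as higher (0 to 6 over the processing settings tried). Of all measured genes there, 5.96% were higher and 6.78% lower. In neutrophil-like cells 1 of 16 was higher, Pim3 (1.98), and 1 lower, Bcl3 (2.04-fold), beside 13.6% and 11.1% of all measured genes. In the Cxcl3 and Thbs1 cluster 3 of 16 were higher (Pim3, Lrg1 and Il1rn) and 3 lower (Timp1, Bcl3 and Lcn2), beside 6.33% and 7.36% of all measured genes. In that cluster the list went both ways.

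The immediate early genes, which rise within minutes of stress or growth factor signals and can rise while tissue is taken apart, were higher in PTIR1 in 3 of the 4 classes described. Of 10 genes, 6 were at least 1.5-fold higher in PTIR1 monocyte or macrophage-like cells (median log2 ratio 0.69), 8 in fibroblast-like cells (0.67), 7 in CT26 tumour cell-like cells (0.83) and 0 in neutrophil-like cells (0.05), and none was lower by that fold in these classes. Of all measured genes, 6.31%, 12.1%, 5.96% and 13.6% were higher in these 4 classes. Egr1 stood at 262 CPM in PTIR1 and 87.0 CPM in mock in the monocyte or macrophage-like class (3.01) and Nr4a1 at 219 and 89.8 CPM (2.43). In fibroblast-like cells Junb, which both lists hold, Zfp36 (1.80), Fos (1.72) and Fosb (1.71) led, and in CT26 tumour cell-like cells Fos (2.22), Zfp36 (2.29), Fosb (1.94) and Dusp1 (1.90). The summed list was higher in PTIR1 in 12 of 12 myeloid clusters, with ratios from 1.22 to 1.88. The part of this response in the levels of Il6, Osm and Socs3 was not tested.

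**Figure D5:**
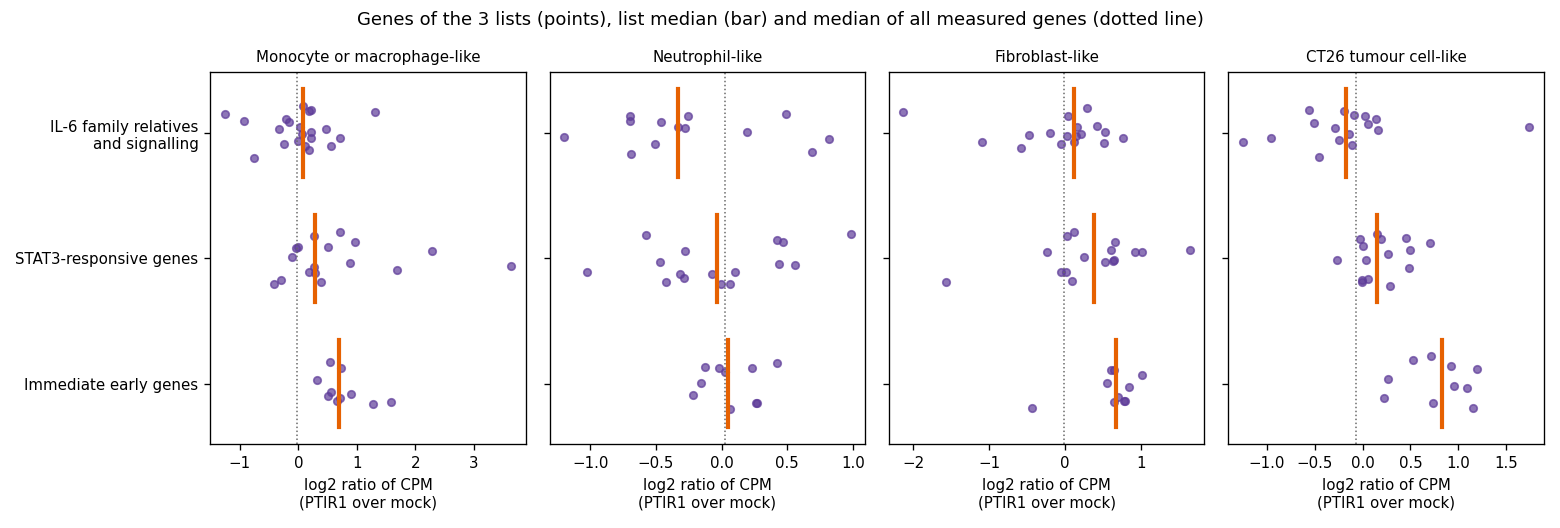
Log2 ratios of CPM, PTIR1 over mock, of the measured genes of 3 lists in 4 classes, with the list median as an orange bar and the median of all measured genes as a dotted line. The immediate early genes have medians of 0.69, 0.67 and 0.83 in monocyte or macrophage-like, fibroblast-like and CT26 tumour cell-like cells and 0.05 in neutrophil-like cells, while the relatives and signalling genes lie on both sides of 0.

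The genes most like each of the 8 were sought over 22 sums, those of a class or of a cluster named by its leading genes in 1 library with at least 50 cells. They are a description, since sums of 1 library share its depth and its free RNA. Osm was most like Emilin2 (Pearson r of log2(CPM + 10) of 0.961), Lilrb4a (0.955) and the chemokine Cxcl2 (0.952). Il11 was most like Ngef (0.988), Btc (0.984) and Krt20 (0.983), a likeness that rests on the 2 tumour cell-like sums. Osmr was most like Agt (0.995), Cyp26b1 (0.991) and Medag (0.990), which rests on 1 sum, as fibroblast-like cells entered for PTIR1 only. Il6 had no such close neighbour: Furin was nearest (0.789), before Ccl24 and Nt5dc2. Socs3 was most like Antxr2 (0.895), Rnf149 (0.889) and Cebpb (0.888), Il6ra like Alpk1 (0.929), Zdhhc9 and Tfe3, Il6st like 4930402H24Rik (0.871), Tspan17 and Il1rl2, and Lif like Impdh1 (0.751), Tgds and Lrrc8b.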

How the data were processed

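The deposited files held UMI counts per gene and cell barcode, which the authors made with Cell Ranger 5.0.0, per the submitters' processing notes, which also name Seurat 3.2.3 and mm10. Library kit version 3.1 is named in the labels' protocols. The annotation behind the counts and any doublet removal were not given in the sources used here. Every deposited barcode had at least 500 UMIs. The 8 genes, the gene lists and the tests were chosen with earlier results of these data known.

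A cell was kept if it had 200 or more genes and no more than 10% of its UMIs from mitochondrial genes. Doublets were scored with Scrublet in scanpy. Its threshold removed 67 of 7567 PTIR1 cells (0.885%) and called 0 of 9328 mock cells, so there the 696 cells that scored highest (7.46%) were taken out, a rate of 0.8% per 1000 cells. Leiden clustering (log values at 10000 UMIs per cell, 2000 variable genes without the 8 genes, 30 components, 15 neighbours, resolution 1.0, lymphoid and myeloid clusters clustered again) gave 44 clusters. A class name needed 3 markers, each in at least 10% of cells and at 20% or more of its highest cluster level. Each also had to be more than 2-fold over its median across clusters. For lymphoid or myeloid clusters that were clustered again, this median was over the clusters outside that set. Further rules on markers of other lineages, macrophage markers and depth could make a cluster mixed or leave it without a class. The Macrophage and Monocyte classes were joined. Clusters without a class that had at least 50 cells in each library and a median of at least 5000 UMIs are named by their leading genes.

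UMIs were summed per class and library and given as CPM of the class total. Levels have exact Poisson, ratios exact conditional binomial and shares exact binomial (Clopper-Pearson) intervals at 95%. They cover counting error only. A gene was measured at 20 or more UMIs over both libraries, and was called higher or lower at a ratio of at least 1.5 either way. A gene at 0 in 1 library was set to 3 UMIs there, and called only if still past the fold. The text names all 8 genes, and of each list at most 4 genes per class and direction, ranked by the interval bound closer to 1. Stat3, Lifr and genes of other lists given as levels were chosen after their values were seen. The values of 1 listed gene are not reported here. Gene locations come from GENCODE vM21, and promoters from RefSeq (GRCm38.p6), which had no entry used here for Osm. The STAT motif was planned, and the AP-1 motif was added after the data were seen. The code was tested on simulated data. Clustering used scanpy 1.11.5, leidenalg 0.10.2 and igraph 0.11.9, intervals scipy 1.17.1, figures matplotlib 3.10.9, and tables pandas 2.3.3 and numpy 2.4.6, with anndata 0.12.19, scikit-learn 1.9.0 and Python 3.11.15.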

Additional observations from a re-analysis of the deposited data

Results flagged for a closer look

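In 5 cases a gene was lower in PTIR1 in 1 class, with an interval below 1, while it was at least 1.5-fold higher, with an interval above 1, in others. The difference between the classes was not tested. In mast cell or basophil-like cells the ratio was 0.653 (0.499 to 0.844) for Osm, from 72 UMIs in PTIR1 and 337 in mock, 0.535 (0.319 to 0.855) for Socs3, from 21 and 120 UMIs, and 0.245 (0.0281 to 0.981) for Il6ra, from 2 and 25 UMIs. In other classes Osm was higher in 6 (ratios of 1.69 to 4.998), Socs3 in 6 (1.57 to 2.02) and Il6ra in 2 (1.81 to 2.83). Both ends of the Osm range are from CT26 tumour cell-like and B cell-like cells, where the part of RNA from other cells was not tested. The 1.57 and 2.83 are from T cell-like cells, whose 2 clusters differ in share between the libraries. Within them Socs3 had ratios of 1.28 (0.519 to 2.76) and 1.22 (0.797 to 1.86), and Il6ra 1.59 (0.9003 to 2.80) in the cluster that held it. Osm was also lower in mature dendritic cell-like cells, with a ratio of 0.472 (0.268 to 0.820) from 24 UMIs in PTIR1 and 34 UMIs in mock. Il6 in T cell-like cells had a ratio of 0.218 (0.0253 to 0.859) from 2 UMIs in PTIR1 and 30 UMIs in mock, which were all in 1 cell, and was higher in 5 other classes (2.26 to 14.1), of which the 14.1 is from CT26 tumour cell-like cells, at 23 UMIs in PTIR1 and 3 in mock and no higher than in B cell-like cells.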

How the results depend on the processing

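The log2 ratios of Osm (1.19 to 1.49), Il6 (1.02 to 1.82), Lif (0.80 to 1.51) and Socs3 (0.39 to 0.49) in monocyte or macrophage-like cells, and of Socs3 (0.82 to 2.25) and Osmr (1.64 to 3.46) in fibroblast-like cells, stayed above 0 in every setting that gave a value. So did Socs3 (0.75 to 1.98) in CT26 tumour cell-like cells. Of the ratios past 1.5-fold, 5 values for single genes turned round: with the marker gate Lif (-0.081) and Il11 (-0.90) in fibroblast-like cells, with each cell weighing the same Il11 in monocyte or macrophage-like cells (1.19) and Osm in CT26 tumour cell-like cells (-0.57), and with each cluster weighing the same Il11 in monocyte or macrophage-like cells (0.62). Ratios within the fold also changed sign, among them Il6ra (-1.43 with B cell-like levels subtracted), Lif (-0.75 with the marker gate) and Il11 (0.50 with each cell weighing the same) in CT26 tumour cell-like cells. Apart from the 5, 356 values for single genes and lists stayed as they were and 59 moved by more than their counting interval or count limit. Settings that changed only the minimum UMIs or the fold could not change a ratio. The ratios under these settings are among those that stayed, by construction, and say nothing about robustness. Osm in fibroblast-like cells ranged from -0.66 to 2.92.

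The share of UMIs held by the monocyte or macrophage-like class (in PTIR1, then in mock where it moved) was 31.8% for Il6 and 45.9% and 60.1% for Osm with no doublets removed. It was 78.2% and 69.4% for Il6 and 73.5% and 77.1% for Osm with an equal doublet rule. That rule kept the same 8632 mock cells, which were clustered and named again with 7109 PTIR1 cells. With up to 20% mitochondrial UMIs it was 34.8% for Il6 and 42.3% and 59.6% for Osm, and with at least 500 genes 34.9% and 55.7% for Il6 and 43.7% and 66.7% for Osm. At resolution 2.0 it was 32.3% for Il6 and 39.3% and 64.1% for Osm, and at resolution 0.5 it was 13.4% and 30.3% for Il6 and 25.4% and 49.4% for Osm. The marker gate gave 69.0% and 68.3% for Il6, 71.2% and 79.0% for Osm and, for Il11 in CT26 tumour cell-like cells, 4.86% and 12.4%. With named classes only as the denominator the shares were 78.3% and 75.1% for Il6, 80.3% and 84.1% for Osm, and 96.9% for Il11 in mock. With the Cxcl3 and Thbs1 cluster joined, an alternative chosen after seeing the data, they were 68.4% and 69.1% for Il6 and 64.4% and 75.7% for Osm. The cause was not tested.

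Of the 8 genes, those past the fold fell to 1 in neutrophil-like cells with at least 500 genes, with B cell-like levels subtracted, at a minimum of 50 UMIs, at a ratio of at least 2 and with cells thinned to 1000 UMIs. They fell to 1 in CT26 tumour cell-like cells with B cell-like levels subtracted, at a ratio of at least 2 and when thinned, to 1 in fibroblast-like cells at a ratio of at least 2, and to 2 in monocyte or macrophage-like cells when thinned. STAT3-responsive genes at least 1.5-fold higher numbered 3 in monocyte or macrophage-like cells at a ratio of at least 2. In fibroblast-like cells they numbered 12 with the marker gate, 11 with the mixed cluster joined (chosen after seeing the data), 4 with B cell-like levels subtracted and 2 at a ratio of at least 2. They ranged from 0 to 6 in CT26 tumour cell-like cells and from 0 to 4 in neutrophil-like cells.

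The 47 mock fibroblast-like cells, the 3 mock Osmr UMIs in them and the sparse counts of Il11 outside tumour cell-like cells limit those ratios. No paired analysis was possible because each group had 1 library.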
